A study of Mus musculus with 19 samples.

Results

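Small nucleolar RNAs (snoRNAs) and small Cajal body RNAs (scaRNAs) were examined for cleavage at cytidines (C) in mouse neural progenitor cells. The members were taken from a table of C sites measured by hydrazine-aniline cleavage sequencing (HAC-seq) and comprised every site at which a snoRNA or scaRNA gene was annotated, with sites inside a host gene included and no minimum ratio. There were 2486 such sites among 118890 distinct sites, and they fell in 303 snoRNA or scaRNA genes. Of these sites, 2258 also lay inside a host gene (203 host genes) and 228 carried no other annotation.

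The cultures were neural progenitors of embryonic day 17.5 cortex, kept on Matrigel with the growth factors bFGF and EGF. One genotype was wild type (WT) and the other a conditional knockout (cKO) of Mettl8, the gene of a mitochondrial enzyme that methylates C to 3-methylcytidine (m3C) in transfer RNA (tRNA). What drove the deletion, and which part of the gene it removed, is not given in the sources used here. HAC-seq libraries were made from 8000 ng of total RNA, 4 from WT and 3 from cKO, and SMART-seq2 RNA-seq libraries from 300 ng, 6 of each genotype. The labels do not say whether replicates were separate cultures or animals, so the spread behind the p-values below may be technical.

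SnoRNAs guide modification of other RNAs by base pairing. C/D box snoRNAs, bound by fibrillarin, direct 2'-O-methylation, H/ACA snoRNAs, bound by dyskerin, direct pseudouridylation, and scaRNAs direct the same changes in spliceosomal RNAs within Cajal bodies. Most vertebrate snoRNAs are cut out of introns of host genes and trimmed to fixed ends, whereas U3 (Rnu3 genes) and U8 (Snord118), which act in ribosomal RNA processing, are transcribed from their own promoters.

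HAC-seq treats RNA with hydrazine, which attacks m3C, and then with aniline, which breaks the chain at the attacked base, so that reads begin 1 nucleotide downstream of the modified C. The cleavage ratio is the number of such read starts as a percentage of all reads at the site. A read that begins at the natural 5' end of an RNA is counted in the same way for the C just before that end, so each ratio is given here against the annotated ends. Positions are from build GRCm38.p6. RefSeq intervals of the snoRNAs, extended by 5 nucleotides at each end, held 2258 of the member sites in 284 genes; nucleotide 1 is the first base of the RNA and nucleotide 0 the base before it.

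RefSeq (GRCm38.p6) microRNA hairpins overlapped 5 snoRNA and 4 scaRNA genes, with the base C at 40 of 40 listed sites in them. The 4 that hold a site with a WT ratio above 50% are printed to show where the dominant read start falls against the snoRNA motif. They are given 5' to 3' as RNA in lower case, with the C of that site in capitals and, after it, the first UGAUGA in capitals where the hairpin has one. UGAUGA is the core of the C box that lies near the 5' end of C/D snoRNAs. The printed bases are those of the hairpin and can start or end outside the snoRNA. Each label names the snoRNA gene that the hairpin overlaps. The hairpins are Mir677 at Gm50449, Mir1291 at Snora34 and Mir5121 at Snord33, while that at Gm24148 has the gene's own name.
Gm24148, chr1:86351981-86352127, minus strand: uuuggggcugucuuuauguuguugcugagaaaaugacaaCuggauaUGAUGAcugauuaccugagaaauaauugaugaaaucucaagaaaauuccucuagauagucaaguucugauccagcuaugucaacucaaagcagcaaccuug
Gm50449, chr10:128085286-128085363, plus strand: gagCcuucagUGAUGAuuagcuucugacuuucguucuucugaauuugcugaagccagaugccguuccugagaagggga
Snora34, chr15:98519762-98519878, minus strand: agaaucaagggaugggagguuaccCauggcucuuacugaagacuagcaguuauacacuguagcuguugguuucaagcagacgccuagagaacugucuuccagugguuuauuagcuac
Snord33, chr7:45126918-45126991, minus strand: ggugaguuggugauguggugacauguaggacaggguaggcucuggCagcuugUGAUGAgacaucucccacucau

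The capital C was nucleotide 40 of the 147-nucleotide hairpin with Gm24148, nucleotide 4 in Gm50449, 25 in Snora34 and 46 in Snord33. In the 3 hairpins with UGAUGA, exactly 6 bases separated the C from it. The motif was searched on the RNA strand only and occurred in 27 of all 1005 mouse microRNA hairpins in RefSeq (2.69%), whose lengths vary. The printed hairpins were chosen for overlapping snoRNA genes, so that share is no test of them. Snora34, an H/ACA RNA by its symbol, had no UGAUGA in its hairpin.

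The site in Gm24148, a snoRNA within the nucleolin gene Ncl, had ratios of 98.0%, 98.0%, 97.8% and 97.8% in the WT libraries and 97.3%, 98.0% and 97.5% in the cKO libraries. The other 4 listed C in that snoRNA lay between 0.243% and 2.52% in WT. The jump from near complete to near background therefore occurred between adjacent listed C, and the genotype groups overlapped.

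Snord33, within the ribosomal protein gene Rpl13a, gave 84.6%, 87.8%, 91.7% and 88.6% in WT and 89.9%, 77.9% and 94.6% in cKO at its capital C. This C is nucleotide 0 of the RefSeq interval, the base just before the annotated RNA. The bases printed up to and including it thus lie upstream of Snord33. The next listed C, at nucleotide 3, averaged 7.94% in WT. Snora34, within Kansl2, stood at 86.9%, 92.5%, 90.2% and 96.3% in WT and 95.6%, 90.6% and 93.0% in cKO at a C that lies upstream of its RefSeq interval, at nucleotide -19. Its next 3 listed C averaged 2.94%, 4.32% and 5.12% in WT. Gm50449, within Atp5b, had a WT mean of 95.6% ± 2.03 (SD, n = 4) at a lowest coverage of 37 reads. That is under the minimum of 50 used below, and the site was not tested. A second C of Gm50449, at 128085309 on chromosome 10, averaged 20.6% in WT and 20.2% in cKO.

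Coverage of at least 50 reads in each of the 7 HAC-seq libraries was reached by 2278 member sites, and 208 did not reach it. The median over members of the lowest coverage in any library was 436 reads, from 1 to 139401. The table lists a site only where each WT library has at least 2 read starts, so C with fewer starts are not part of these counts.

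Most listed C in snoRNAs had low ratios. Over the 2278 sites the median WT ratio was 1.97% (quartiles 0.899% and 4.08%), 639 sites lay below 1% and 1198 between 1% and 5%. At the other extreme, 40 sites exceeded 50% and 25 exceeded 90%. Among all 87065 sites of the same coverage, 204 exceeded 50%, and the 40 member sites made up 19.6% of them while members made up 2.62% of the sites. Put per site, 1.76% of members and 0.193% of other sites exceeded 50%.

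Most of these high-ratio sites sat at the annotated 5' ends of the RNAs or shortly upstream. Of the 40 sites, 30 lay inside an extended RefSeq interval, and in 26 of those 30 (86.7%) the C was within 5 nucleotides of the 5' end: 14 at nucleotide 0, 6 at nucleotide 1, 3 at nucleotide 2 and the others at nucleotides 3 and 4. A further 8 sites lay outside the interval of their own gene, at nucleotides -9 to -19, so that 26 of the 38 sites in genes with an interval (68.4%) were next to the annotated end. At a ratio above 30% the count inside intervals was 28 of 51 (54.9%). Among all 2095 sites inside an extended interval and with this coverage, 235 lay in that window. Their median WT ratio was 3.90% and 26 of them (11.1%) exceeded 50%, against a median of 1.71% and 4 of 1860 (0.215%) elsewhere in the RNAs. No listed C with this coverage lay within 5 nucleotides of a 3' end. These counts describe the positions and were not tested.

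**Figure D1:**
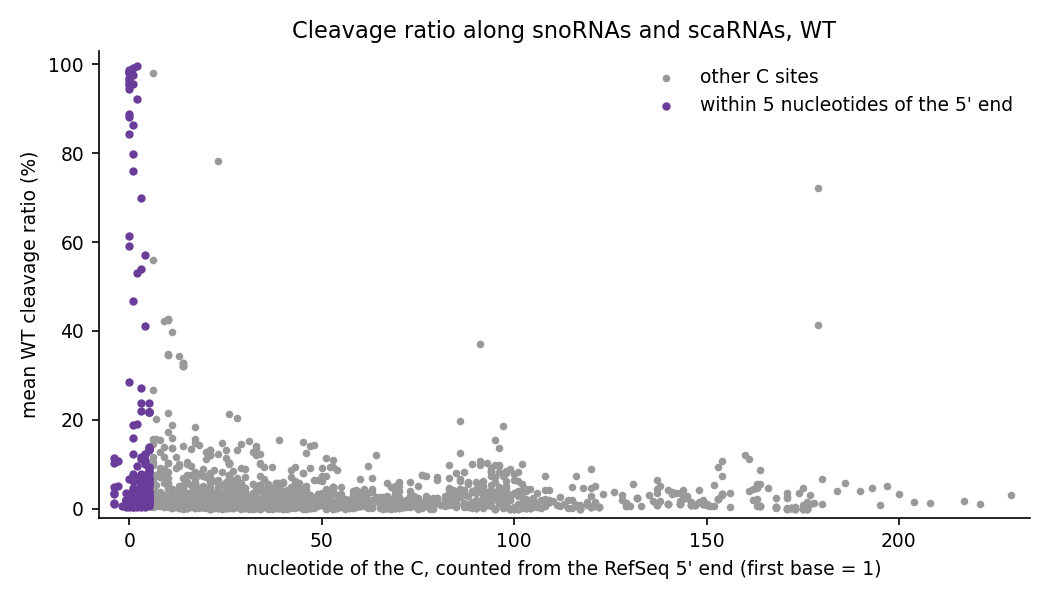
Mean WT cleavage ratio (vertical axis, %) of 2095 C sites against the nucleotide of the C counted from the RefSeq 5' end (horizontal axis); purple points lie within 5 nucleotides of that end and grey points elsewhere. The 26 purple points above 50% stand in a column at the 5' end, and 4 grey points exceed 50%.

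Ratios were highest at nucleotide 0 and showed no steady fall beyond it. There the median WT ratio was 28.6% over 29 sites, with a range from 0.452% to 98.6%. It was 5.55% at nucleotide 1 (28 sites), 2.78% at nucleotide 2 (31 sites), 4.27% at nucleotide 3 (35 sites), 5.11% at nucleotide 5 (43 sites) and 5.78% at nucleotide 10 (27 sites). Of the 29 sites at nucleotide 0, 15 were at or below 50%. Whether the annotated end is the end of the RNA in these cells was not tested.

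The order of the listed C could be read at all 40 sites. Of the 40 sites above 50%, 32 were the most 5' listed C of their gene and 6 the next one. Of the 10 outside the intervals, 8 were the first and 2 the next, in Snord38a and Snora62. The 10 comprised Snord38a (nucleotide -9), Snord53, Snord83b and Snord49a (-10), Snord111 and Snora81 (-14), Snora62 (-18), Snora34 (-19), and Gm24148 and Gm50452, whose genes had no matched interval. For the 37 sites with a further listed C downstream, the median WT ratio at the next C was 2.57%, and at 31 of the 37 it was below 10%. Snord95, within Rack1, was the exception with adjacent high values: 99.2% at nucleotide 1 and 53.1% at nucleotide 2.

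C/D snoRNAs supplied the strongest sites by symbol. Sites in genes named Snord numbered 566 in 72 genes, with 15 above 50%. Those in genes named Snora numbered 445 in 36 genes, with 3 above 50% (Snora62, Snora81 and Snora34). The 76 sites in 8 Scarna genes had none above 50%, while 22 lay in the 187 genes with other symbols, mostly predicted genes whose class the symbol does not give. By biotype, 92 sites in 18 genes were scaRNA, and 2 of these exceeded 50%, in Gm23370 (95.5% ± 1.11 in WT, SD, n = 4) and Gm23751 (59.2% ± 4.13).

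The 12 tested sites of highest WT ratio ranged from 96.6% to 99.5%. Snord59a, a C/D snoRNA within Atp5b (chromosome 10, 128084143, nucleotide 2), led with 99.4%, 99.5%, 99.5% and 99.5% in WT and 99.5%, 99.6% and 99.6% in cKO, at 2283 to 3504 reads per library. The 3 cKO values were all above the 4 WT values, but by a mean of 0.111 percentage points (exact two-sided permutation p = 0.0286, the smallest that 35 splits allow; adjusted p = 0.761 in the quasi-binomial fit). A counting interval for this site (95% Clopper-Pearson, counting error only) ran from 99.1% to 99.6% in WT replicate 1.

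Snord95 (chromosome 11, 48803139, nucleotide 1) followed with 100%, 99.4%, 98.5% and 98.9% in WT and 98.5%, 98.8% and 99.0% in cKO. Gm22858, within Wdr43 (chromosome 17, 71641583, nucleotide 0), had 98.0%, 97.7%, 99.1% and 99.6% in WT and 99.2%, 98.5% and 98.9% in cKO. Gm26224, in the spliced noncoding host Gas5 (chromosome 1, 161035399), had 98.0%, 97.7%, 98.1% and 98.6% in WT and 98.9%, 98.0% and 98.5% in cKO. In these 3 snoRNAs the WT and cKO libraries overlapped.

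The next group spread over ribosomal protein genes, noncoding hosts, Wdr43 and a U3-related gene. WT means were 98.3% ± 0.987 for Gm24826 (nucleotide 0), 98.2% ± 0.988 for Gm25744 in 1110038B12Rik, 98.0% ± 0.579 for Gm24134 in Rpl7a and 97.9% ± 0.288 for Snord38a. The remaining means were 97.4% ± 0.646 for Gm23246 in Snhg1, 96.9% ± 1.46 for Snord15b in Rps3 and 96.6% ± 1.72 for Snord53 in Wdr43 (all SD, n = 4). Their cKO means ran from 95.01% (Snord15b) to 98.8% (Gm25744 and Gm24134), and at each of these 7 sites the WT and cKO libraries overlapped. The most deeply covered of the high-ratio sites was in Snord49a (chromosome 11, 62603449), with 91.4%, 91.4%, 92.1% and 90.7% in WT and 92.6%, 91.7% and 90.7% in cKO at 7108 to 11642 reads.

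**Figure D2:**
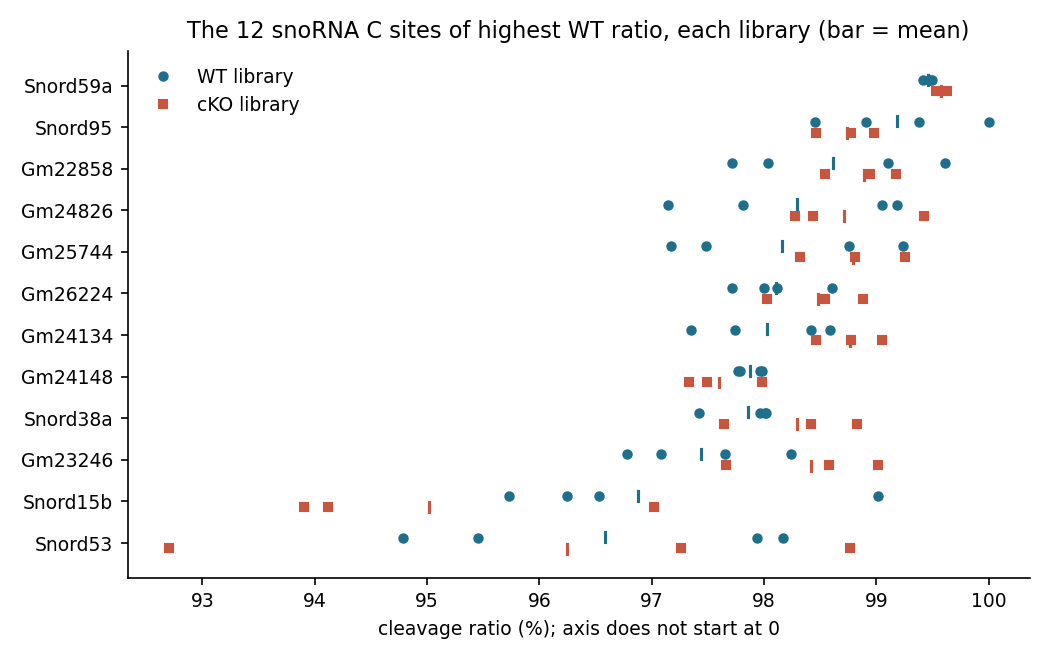
Cleavage ratio (horizontal axis, %, which does not start at 0) in each HAC-seq library at the 12 sites of highest WT mean; circles are the 4 WT libraries, squares the 3 cKO libraries and vertical bars the group means. The groups overlap at 11 of the 12 sites, and at Snord59a they differ by 0.111 points.

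The class leaders among the others were lower. Snora62, an H/ACA RNA within Rpsa (chromosome 9, 120130415), had 95.7%, 95.1%, 94.9% and 93.6% in WT and 93.8%, 93.9% and 94.0% in cKO. Scarna17, a small Cajal body RNA (chromosome 18, 74778469), had 36.6%, 37.2%, 37.0% and 38.8% in WT and 44.7%, 31.2% and 50.5% in cKO, at 96 to 135 reads. The cKO libraries lay on both sides of the WT libraries there.

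Away from the annotated 5' end, 4 sites exceeded 50% in WT. In Gm26224 and in Gm23201, a snoRNA within Zfas1 (WT mean 56.0% ± 2.94), the C was at nucleotide 6, the first listed C of the gene. The other two lay in U3-related genes. Gm22865, named Rnu3b-ps2 in RefSeq and located within Tmem62, had 78.0%, 79.0%, 75.9% and 79.9% in WT and 77.9%, 78.0% and 80.6% in cKO at nucleotide 23. Gm24949 had 76.1%, 75.4%, 68.4% and 68.4% in WT and 69.7%, 75% and 79.6% in cKO at nucleotide 179, its last listed C. The same C of Gm23927, another U3-related gene, had nearly the same read starts (199 against 204 in WT replicate 1) but a WT mean of 41.4% ± 3.14, so these copies share reads as well. Both sets of values overlapped between genotypes.

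U3 took a large share of the read starts. The 4 Rnu3b genes have near-identical sequences and each lists 48 C sites, the most of any member, followed by Rnu3a with 36 and Scarna10 with 33. Their counts are nearly the same from gene to gene, so the copies share reads and are not separate measurements. With the shared reads of the Rnu3b genes, and of Gm24826, Gm24949 and Gm23927, counted once, genes named Rnu3 in the table or in RefSeq took 49.5% to 55.8% of the read starts at member sites inside an interval in the 7 libraries. The copy kept of the last group was Gm24826. This U3-related gene has no Rnu3 name, so its read starts are not in that share. The 5' window then held 16.2% to 21.2% of these read starts. Without the genes named Rnu3 it held 36.5% to 42.2%, with Gm24826 still included.

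Along Rnu3b1 the ratio rose and then fell while the coverage climbed. At nucleotide 5 the WT ratio was 21.7% ± 3.62 with a lowest coverage of 260 reads, at nucleotide 10 it was 42.6% ± 0.869 with 1651 reads, and at nucleotide 14 it was 32.1% ± 1.69 with 5955 reads (SD, n = 4). It was 12.1% ± 0.306 at nucleotide 21, 10.3% ± 0.244 at nucleotide 26 and 4.33% ± 0.191 at nucleotide 34, where the lowest coverage was 49919 reads. The number of read starts did not follow the ratio: in WT replicate 1 there were 1217 at nucleotide 10 and 9703 at nucleotide 53, where the ratio averaged 5.00%. From nucleotide 67 to the last listed C at nucleotide 176 the highest WT mean was 3.34%, at nucleotide 154.

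**Figure D3:**
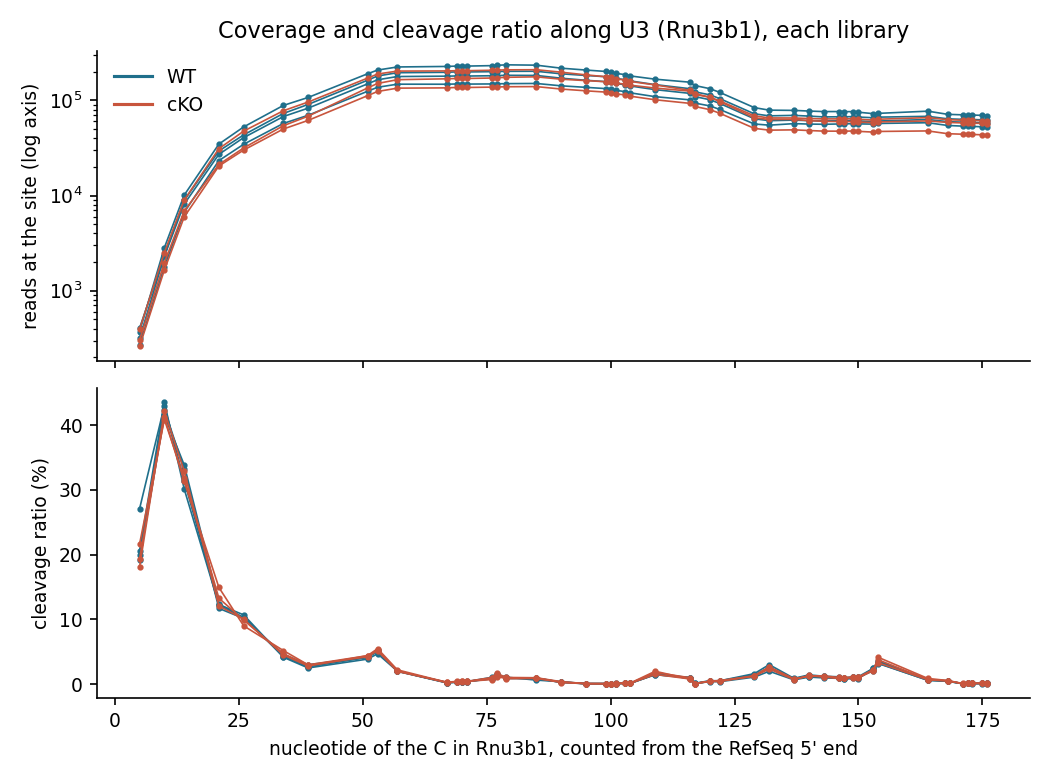
Reads at each listed C of Rnu3b1 (upper panel, log axis) and cleavage ratio (lower panel, %) against the nucleotide from the RefSeq 5' end, with 1 line for each of the 4 WT (blue) and 3 cKO (red) libraries. Ratios peak at nucleotide 10, where coverage is still low, and the lines of both genotypes lie close together.

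In U8 the ratio was highest at the first listed C and lower at every later one, without a steady fall. In Snord118 the WT ratio was 69.8% ± 4.59 at nucleotide 3, at a lowest coverage of 56 reads. It was 26.8% at nucleotide 6 (487 reads) and 7.82% at nucleotide 18 (1307 reads). Further on it was 1.47% at nucleotide 23, 8.89% at nucleotide 30 and 2.39% at nucleotide 37. At nucleotide 3 the libraries gave 72.6%, 72.0%, 71.8% and 63.0% in WT and 61.3%, 69.6% and 62.1% in cKO, which overlap.

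The comparison of genotypes asked whether loss of Mettl8 altered cleavage in these RNAs. The mitochondrial threonine tRNA mt-Tt is a known target of the enzyme. There the ratio was 94.4% ± 0.483 in WT (SD, n = 4) and 2.10% ± 0.405 in cKO (n = 3), as these libraries are labelled. No snoRNA or scaRNA site changed in this way. The test took sites with 50 reads or more per library and a mean ratio of 5% or more, which left 446 member sites in 185 genes. A further 1832 sites with enough coverage had lower ratios.

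Mean ratios over the 446 tested sites were 17.6% ± 0.197 in WT (SD, n = 4) and 17.8% ± 0.279 in cKO (n = 3). With a quasi-binomial model of read starts out of coverage, fitted over all 13240 tested sites of the table, 0 member sites were called at an adjusted p under 0.05. Over all tested sites 0% were called higher and 0.00755% lower. Before adjustment, with p under 0.05, 18 member sites were higher in cKO (4.04%, against 6.62% of all tested sites) and 8 were lower (1.79%, against 2.02%). With U3 copies counted once, 15 of 416 sites were higher (3.61%) and 5 lower (1.20%). These shares lie under those of the whole table. Other genes with near-equal values, such as Gm22303 and Gm24355, were still counted apart. After an arcsine square root transform, limma gave unadjusted counts of 9 higher and 10 lower among the 446 members, again with 0 called. Over all 13240 tested sites it gave 791 higher and 251 lower.

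Every cKO library was above every WT library at 22 member sites (4.93%, against 5.43% of all tested sites) and below them at 14 (3.14%, against 2.03%), or at 22 (5.29%) and 11 (2.64%) of 416 with U3 copies counted once. The mean was higher in cKO at 256 of 446 sites (57.4%, against 61.4%). The median difference, cKO minus WT, was 0.271 percentage points over the members and 0.570 over all tested sites. Differences ran from -11.7 to 10.3 points, with 214 sites within 1 point, 322 within 2 points and 13 beyond 5 points. Across the 446 sites, which share their 7 libraries, Pearson's r between the WT and cKO means was 0.996, given as a description.

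**Figure D4:**
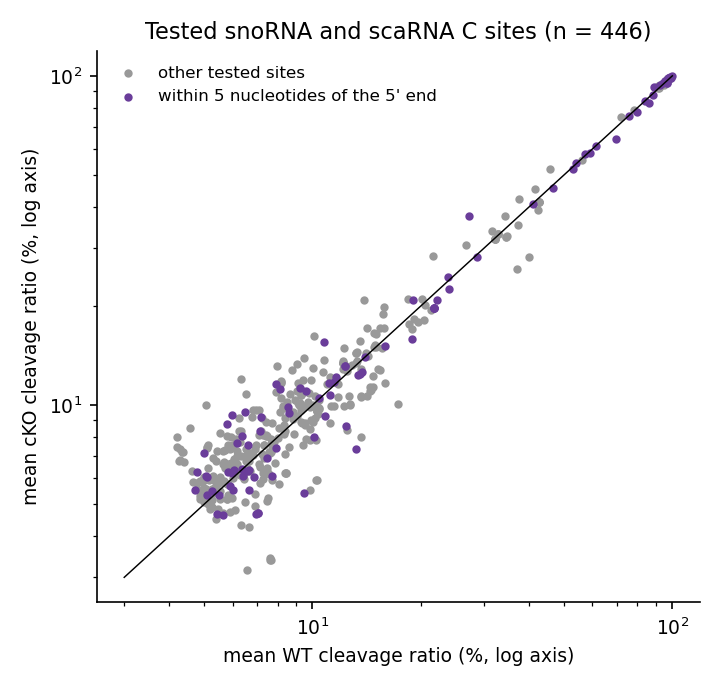
Mean cKO against mean WT cleavage ratio (%, both axes logarithmic) of the 446 tested sites; the line marks equal values, purple points lie within 5 nucleotides of the RefSeq 5' end and grey points elsewhere or have no interval. Points lie along the line over the whole range, and 0 sites were called.

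Sites at the end and inside the RNAs were also counted apart. Of 98 tested sites in the 5' window, 50 had the higher mean in cKO and 48 in WT (median difference 0.0313 points). Of 302 internal tested sites, 177 had the higher mean in cKO and 125 in WT (median 0.292 points). At the 40 sites above 50% the differences ran from -5.49 points (Snord118) to 3.71 points (Snord100), with a median of 0.267. A difference between the windows was not tested.

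By class, 53 of 88 tested Snord sites, 51 of 88 Snora sites and 5 of 10 Scarna sites had a higher mean in cKO. The means over the tested Snord sites were 23.2% ± 0.117 in WT and 23.5% ± 0.513 in cKO. Those over the Snora sites were 11.8% ± 0.410 and 11.9% ± 0.0553, and those over the Scarna sites 11.8% ± 1.91 and 12.2% ± 1.92 (SD, n = 4 and 3). Each of these differences was smaller than the larger SD.

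The site with the smallest unadjusted p among those with higher means in cKO was in Gm25835, a snoRNA within Eif4a1 (chromosome 11, 69668979, nucleotide 17). Its ratios were 6.93%, 8.04%, 7.82% and 9.94% in WT and 13.7%, 10.95% and 10.4% in cKO. The groups did not overlap, the difference was 3.51 points, and the adjusted p was 0.518 (exact permutation p = 0.0571).

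Gm24453, one of the snoRNAs in Snhg1 (chromosome 19, 8724870, nucleotide 3), had 29.2%, 29.7%, 27.1% and 23.1% in WT and 38.1%, 39.7% and 34.9% in cKO. The groups stood apart by a mean of 10.3 points at 97 to 209 reads per library (exact permutation p = 0.0286, adjusted p = 0.5676). Other sites with small p were in Gm23017 (4.21% ± 0.318 in WT, 7.46% ± 2.84 in cKO), in Gm22879 (5.00% ± 1.10 and 7.15% ± 0.906) and at nucleotide 13 of Gm24134 (10.05% ± 1.53 and 12.9% ± 1.26). The last pair both lie within Rpl7a. None of these sites passed the threshold, with adjusted p = 0.575 for each in the quasi-binomial fit (limma squeezing of the dispersion).

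Among sites with lower means in cKO, nucleotide 26 of the 4 Rnu3b genes came first, as 1 shared measurement. In Rnu3b1 (chromosome 11, 87443262) the ratios were 10.7%, 10.2%, 10.1% and 10.2% in WT and 8.99%, 10.005% and 9.86% in cKO. The difference was -0.699 points at 30026 to 52522 reads, with no overlap between groups. The U3 C at nucleotide 21 of the same gene differed in the other direction, with 12.3%, 12.2%, 11.7% and 12.4% in WT and 14.9%, 12.1% and 13.3% in cKO, and the groups overlapped. At nucleotide 25 of Rnu3a the values were 12.4%, 10.99%, 11.3% and 11.1% in WT and 9.38%, 9.47% and 10.97% in cKO. The adjusted p was 0.575 at each of these U3 sites.

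Snora23, within Ipo7 (chromosome 7, 110046454, nucleotide 91), had 35.1%, 33.6%, 33.3% and 45.9% in WT and 33.8%, 29.8% and 14.2% in cKO. The groups overlapped, and cKO replicate 3 stood far below the others (exact permutation p = 0.0857, adjusted p = 0.575). Snora36b, within Rab3gap2 and chosen after its values were seen for the largest difference of any tested member (-11.7 points), showed the same library apart: 33.9%, 34.3%, 43.6% and 47.7% in WT and 36.2%, 35.2% and 13.1% in cKO.

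Coverage in HAC-seq was then compared as a measure of how much RNA of each snoRNA entered the libraries, taking for each gene its most deeply covered C. Member genes took 5.14% to 6.03% of the reads at these sites with U3 copies counted once, and 9.64% to 12.1% with each copy counted. In such bulk samples fewer cells with an RNA and less RNA per cell cannot be told apart. Levels are CPM, read counts scaled to library size with TMM, and are not divided by length.

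The most deeply covered were the U3 genes. Rnu3b4 had 16933, 16315, 16857 and 14102 CPM in WT and 21652, 16870 and 18538 CPM in cKO, and the groups overlapped. The log2 difference was 0.24 (SE 0.147, adjusted p = 0.541, edgeR quasi-likelihood test). Rnu3b1, Rnu3b2 and Rnu3b3 had nearly the same values, Rnu3a had 2289 ± 132 CPM in WT and 2601 ± 254 in cKO, and Gm24826 had 1783 ± 87.4 and 1983 ± 86.6 (SD, n = 4 and 3).

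No member gene was called for coverage. Of 302 member genes among 6640 tested, 0 passed an adjusted p under 0.05 (edgeR), beside 0.0151% of all genes called higher and 0% lower. Before adjustment, with p under 0.05, 23 were higher in cKO (7.62%, against 4.83% of all genes) and 0 lower (against 5.9%). DESeq2 called 0 members as well, with unadjusted counts of 22 higher and 0 lower of 305, beside 319 higher and 261 lower of all 6999 genes. The median log2 difference was 0.15 over the members and -0.01 over all genes tested, and 251 members lay above 0 and 51 below. Genes that share reads, such as the Rnu3b copies, each count in these numbers. Leaving out single libraries moved the members' median between 0.11 (without WT replicate 1) and 0.21 (without cKO replicate 2), and DESeq2's size factors gave 0.17. Without WT replicate 1 the number higher at an unadjusted p under 0.05 was 6 of 301 members, beside 240 of all 6578 genes. Without cKO replicate 3 it was 11 of 303, beside 315 of 6693. Without WT replicate 3 it was 37 of 300 (with 3 lower), beside 439 of 6582 (with 363 lower). Without cKO replicate 2 it was 30 of 303 (with 1 lower), beside 470 of 6724 (with 446 lower).

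**Figure D5:**
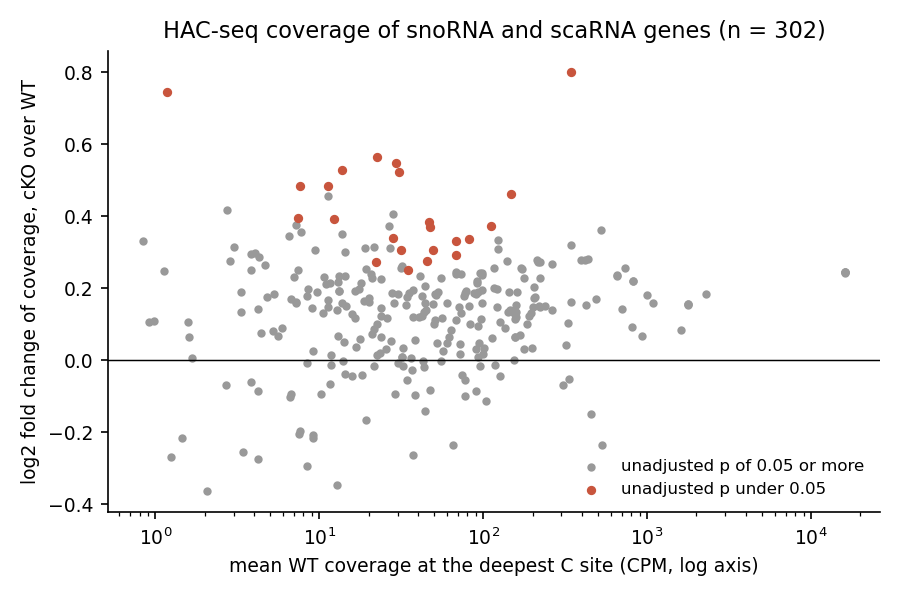
Log2 fold change of HAC-seq coverage, cKO over WT (vertical axis), against mean WT coverage in CPM (horizontal log axis) for 302 snoRNA and scaRNA genes; red points have an unadjusted p under 0.05. The points centre above 0, at a median of 0.15, and the red points lie above 0.

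The smallest adjusted p for coverage was that of Snora64, an H/ACA RNA, at 0.255 (log2 difference 0.55, SE 0.164, edgeR). Its levels were 26.3, 29.8, 32.3 and 29.8 CPM in WT and 39.7, 33.0 and 56.4 CPM in cKO, and the groups did not overlap. Gm23246 in Snhg1 had the largest log2 difference (0.80, SE 0.262, adjusted p = 0.286). It had 308, 357, 381 and 324 CPM in WT and 431, 386 and 973 CPM in cKO, where cKO replicate 3 held by far the highest value. That library also had the lowest TMM factor, 0.795.

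RNA-seq gave the levels of the proteins that work with snoRNAs and of the host genes. Mettl8 itself had 35.9 to 58.6 CPM (median 46.9) in the 6 libraries labelled WT and 59.3 to 80.9 CPM (median 74.9) in the 6 labelled cKO. The groups did not overlap, and the level was higher in the libraries labelled cKO (log2 difference 0.67, SE 0.119, adjusted p = 0.265, edgeR). The targeted gene thus goes against the labels if the deletion is expected to lower its RNA. Directions below are by label. All 9 neural progenitor markers were above 1 CPM on average, with summed levels of 12344 to 15812 CPM in libraries labelled WT and 11270 to 15298 in those labelled cKO, and 0 of 3 fibroblast markers were. Astrocyte markers, all 4 above 1 CPM, summed to 1049 to 2171 CPM and 666 to 2066 CPM. Oligodendrocyte markers, 4 of 5 above 1 CPM, summed to 175 to 717 CPM and 153 to 712 CPM. Neuron markers, 5 of 6 above 1 CPM, summed to 116 to 297 CPM and 125 to 216 CPM. Of the microglia markers 1 of 4 was above 1 CPM, and of the endothelium and mural markers 1 of 4.

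Of 136 listed genes tested, 0 were called at an adjusted p under 0.05 (edgeR, 13105 genes, library set as a covariate), beside 0% of all genes in each direction. At an unadjusted p under 0.05, 7 were higher (5.15%, against 2.86% of all genes) and 2 lower (1.47%, against 3.28%). DESeq2 also called 0 of the listed genes. One library set held cKO replicates 1 and 2 and WT replicates 1 to 3. The other held cKO replicates 3 to 6 and WT replicates 4 to 6. Some levels differed between sets: Dkc1 had 170 to 184 CPM in WT replicates 1 to 3 and 275 to 304 CPM in WT replicates 4 to 6. Ranges and SDs over all libraries of a genotype include such differences.

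None of the core proteins of the particles was called, and Fbl and Gar1 were thinly counted. Among C/D core proteins, 0 of 3 tested were called. Nop56 differed by 0.04 (SE 0.0621) and Nop58 by -0.08 (SE 0.0879) on the log2 scale. Fbl, the methyltransferase, differed by 0.00217 (SE 0.355). It was counted at 0.945 ± 0.355 CPM in the libraries labelled WT and 0.960 ± 0.284 in those labelled cKO (SD, n = 6). In the libraries labelled WT, Nop56 had a mean of 266 CPM and Nop58 of 209 CPM. Counts as low as those of Fbl measure its level poorly. Among H/ACA core proteins, 0 of 4 were called. Dkc1, the pseudouridine synthase, differed by 0.00113 (SE 0.0738). Gar1, at only 2.73 ± 1.07 CPM in the libraries labelled WT, differed by -0.26 (SE 0.235).

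For assembly factors 0 of 12 were called, with 8 above 0 and 4 below. Ruvbl2, an ATPase of the assembly complex, had 43.1 to 66.2 CPM in the libraries labelled WT and 47.9 to 79.3 CPM in those labelled cKO (log2 difference 0.19, SE 0.0882, adjusted p = 0.806, edgeR), and Rpap3, a cochaperone, differed by 0.19 (SE 0.0906). Among Cajal body genes, 0 of 5 were called, and Lsm11 differed by -0.11 (SE 0.122). Among processing and turnover genes, which trim and degrade these RNAs, 0 of 11 were called, and Papd5, a poly(A) polymerase, differed by 0.11 (SE 0.0809).

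Of 12 spliced noncoding hosts and 99 hosts of tested sites, which share 8 genes, 0 were called, with median log2 differences of -0.03 and 0.01 beside -0.000996 over all genes. Gas5, host of Gm26224, differed by -0.04 (SE 0.0678), Snhg1, host of Gm24453 and Gm23246, by 0.11 (SE 0.108), and Ncl, host of Gm24148, by 0.06 (SE 0.0736). Rpl7a differed by -0.07 (SE 0.0820) and Eif4a1, host of Gm25835, by 0.17 (SE 0.110). The smallest unadjusted p among hosts was that of Cnot1, a scaffold of the deadenylase complex, with 277 to 336 CPM (median 299) in the libraries labelled WT and 304 to 387 CPM (median 336) in those labelled cKO (log2 difference 0.18, SE 0.0584, adjusted p = 0.803, edgeR).

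The snoRNAs themselves were thinly counted in RNA-seq. Of the 303 member genes, 115 were in that table, 97 had at least 1 read, 22 had enough counts to be tested and 0 were called. Read starts and coverage in HAC-seq were therefore the main source of values for these RNAs.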

How the data were processed

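HAC-seq (4 WT, 3 cKO libraries) and RNA-seq (6 and 6) of neural progenitor cells were used. Per the submitters' processing notes, reads were handled with bcl2fastq 2.17.1.14, Trimmomatic 0.32 and STAR 2.5.2a on GRCm38 or GRCm38.p6; no source used here names the counting program. For RNA-seq the authors deposited unnormalized counts of reads for each gene. The deposited HAC-seq table gives, per the file headers, for each C site and library the signal of read starts 1 bp downstream, the count of all reads (coverage), and their quotient as a fraction. The authors also deposited a p-value per site, used only as an alternative. The table has 135582 lines, of which 16692 repeat a site and were dropped; the number of sample columns left out was 0. RNA-seq totals were 11830839 to 18863781 counts, and HAC-seq reads at the deepest site of each gene summed to 8052785 to 14222977.

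Members and lists were chosen with earlier results of these data known. Ratios were tested by a quasi-binomial model with dispersions squeezed by limma 3.58.1 and not below 1, two-sided, with Benjamini-Hochberg adjustment over 13240 sites. Coverage and RNA-seq counts were tested with edgeR 4.0.16 (TMM, filterByExpr, quasi-likelihood F test) in R 4.3.3, with DESeq2 1.42.0 as an alternative. RNA-seq fits had the library set as a covariate. Exact permutation tests used all 35 splits. The scripts were tested on simulated data. Named sites were the 12 of highest WT ratio, the 6 of smallest unadjusted p in each direction, the highest of each class, and the 6 genes of highest coverage and of most sites. Named genes of the RNA-seq lists were those of smallest p or those hosting named sites. Alternatives were other coverage and ratio minimums, other tests and scalings, a replicate block and leaving out each library. RefSeq intervals and microRNA hairpins came from GRCm38.p6, and no genome sequence was used. The RNA-seq value of 1 host gene is not reported here.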

Additional observations from a re-analysis of the deposited data

Results flagged for a closer look

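In 100 groups of at least 4 libraries examined, 4 held a library whose gap to the nearest other library exceeded Dixon's critical value. Chance flags about 1 in 20 groups. The HAC-seq cKO group holds 3 libraries, under this minimum, and could not be flagged. At the high-ratio C of Snord38a, WT replicate 3 had 97.4%, below the other WT libraries at 98.0%. At the C of Snora23 (chromosome 7, 110046454), WT replicate 4 had 45.9%, above the others at 33.3% to 35.1%. In RNA-seq, Nop10, an H/ACA core protein gene, had 260 CPM in cKO replicate 4 against 183 to 208 CPM in the other cKO libraries. Snhg8, a snoRNA host, had 13.2 CPM in cKO replicate 2 against 18.2 to 20.8 CPM.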

How the results depend on the processing

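The count of called members was 0 for cleavage ratio, for coverage and for the RNA-seq lists under every alternative run. These covered minimums, tests, scalings, filters, halved RNA-seq counts and left-out libraries. The number of sites above 50% at a 5' end was 26 in each run without 1 WT library, 23 of 30 within 2 nucleotides and 28 of 30 within 10. It was 28 of 51 at a ratio above 30%, so that share falls to 54.9% at the lower threshold. The mean WT ratio of tested members depends on which sites enter: it was 18.1% at a coverage minimum of 20, 19.6% at 100, 6.52% at a mean ratio minimum of 1%, 32.7% at 10%, 4.88% with no minimum (an alternative chosen after seeing the data) 19.7% over sites with no host annotation and 17.3% with U3 copies counted once (also chosen after seeing the data). The median difference lay between 0.133 and 0.378 points over the runs without 1 library, and was 0.0399 with no ratio minimum. With the replicate block 0 members were called for ratio, coverage and RNA-seq, and the unadjusted counts for ratio were 10 higher and 2 lower of 446. Over all 13240 tested sites these counts were 602 higher and 89 lower. Deviations of same-numbered HAC-seq libraries correlated at -0.00794, -0.0177 and 0.0355, so these numbers were not taken as pairs. Those of RNA-seq correlated at -0.359 to 0.622, with the lowest value at replicate 3. That is the only number whose WT and cKO libraries came from different library sets. The difference between sets had not been removed, so the RNA-seq values cannot decide on pairing. Over all sites, ratio calls were 0 higher and 1 lower, against 6 and 5 with dispersions trended on coverage (chosen after seeing the data), 16 and 6 without cKO replicate 2, 0 and 2 without cKO replicate 1, and 0 and 3 at a mean ratio minimum of 1% or none. Over all genes, coverage calls were 1 higher and 0 lower with edgeR, 40 and 10 with DESeq2 and 50 and 7 without cKO replicate 2. RNA-seq calls over all genes were 0, against 20 higher and 45 lower with no filter, 1 and 1 with DESeq2 and 2 and 0 with the replicate block. Depth limits sites near 50 reads most: Snord118 at nucleotide 3 had 56 to 95 reads. Sites with fewer than 2 read starts in a WT library are not listed. Copies of U3 share reads, as other genes with near-equal values may.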
